A study of Mus musculus with 13 samples.

Results

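Hsp90, its kinase-recruiting cochaperone Cdc37, and partners of the same folding cycle were followed in common lymphoid progenitors (CLPs), the BM cells from which lymphocytes descend. The members are 7 of the 24972 genes listed: Hsp90aa1, Hsp90ab1, Hspa8, Cdc37, Stip1, Ptges3, and Ahsa1, taken by gene symbol. Cdc37 was selected on its values, because it was high in Notch1+/- libraries in these data, so its comparisons with that genotype are given as description, and nothing is read from its rows in the fits of all genes. RNA of sorted CLPs came from 5 WT, 5 Notch1+/-, and 3 Notch1+/ΔTAD mice (Notch1+/dTAD in the labels), 1 library per mouse. All were adult C57BL/6 mice of 6 to 12 weeks, untreated, and their BM cells were sorted as DAPI-/Lin-/Sca1Lo/cKitLo/CD127+/CD135+. Notch1+/- mice carry 1 functional Notch1 allele in every cell. In Notch1+/ΔTAD mice, 1 allele encodes a receptor without its transactivation domain, and this product can still occupy RBPj, the DNA-binding partner of Notch, beside the normal protein. Both mutations were carried in the germline, so other BM cells of these mice were mutant too.

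Hsp90 is an abundant cytosolic chaperone that holds kinases, steroid receptors, and other signaling proteins in a state ready for activation. A client is first bound by Hsp70 or its constitutive form Hsc70, then handed to Hsp90 by the adaptor Hop, and released after Hsp90 has closed on ATP, a step that Aha1 speeds up and p23 stabilizes. Cdc37 brings protein kinases to Hsp90, and in lymphoid progenitors the clients include cytokine receptor kinases and cell cycle kinases.

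Hsp90ab1 and Hsp90aa1 encode the constitutive and the more inducible cytosolic Hsp90, and Hspa8 encodes Hsc70. The last 30 coding bases of these 3 genes are shown because the capitals, the bases just before the stop codon, encode the EEVD motif by which all 3 proteins dock to Hop. They were read 5′ to 3′ from GENCODE M21 transcripts on GRCm38.
Hsp90aa1, minus strand, chr12:110691540-110691569: gacacatcacgcatgGAAGAAGTAGACtaa
Hsp90ab1, minus strand, chr17:45568015-45568044: gatgcctcgcgcatgGAAGAGGTGGATtaa
Hspa8, plus strand, chr9:40805088-40805117: tcaggccccaccattGAAGAGGTGGATtaa
Hsp90ab1 and Hspa8 share every base of the capitals although they belong to different chaperone families. Over the whole coding sequence, Hsp90aa1 and Hsp90ab1 were identical at 76.6% of 2174 aligned bases. The 3′ ends, where the reads of this assay fall, were far less alike, since the longest run shared by the last 500 bases of both transcripts was 9 bases.

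The assay reads mRNA 3′ ends, and values are given as TPM, transcript abundances scaled by length that sum to 1000000 in each library. Between 3264 and 6326 genes were above 0 in a library, and the 3 Notch1+/ΔTAD libraries had 4706 to 5764 against 3744 to 4614 in WT libraries. Read counts were not used here, so the depth behind a value is unknown and a listed 0 may be a failed estimate. Dntt, an enzyme of early lymphoid progenitors, ranged from 2095 to 9616 TPM. Among genes of the sort, Flt3 (CD135) ranged from 5.21 to 282 TPM and Il7r (CD127) from 0 to 184 TPM. Kit (cKit) was above 0 in 8 libraries and Ly6a (Sca1) in 5, 2 genes sorted at a low level. Notch1 itself was at 0 to 25.7 TPM in WT, 9.27 to 78.5 TPM in Notch1+/-, and 0.893 to 35.0 TPM in Notch1+/ΔTAD libraries. Whether these 3′ reads lie outside the altered parts of Notch1 was not given, so they do not check the labels.

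Hsp90ab1, Hspa8, and Hsp90aa1 were abundant in every library of every genotype, whereas each of the 4 cochaperones was listed at 0 in at least 1 library and reached at most 309 TPM. In each of the 3 comparisons between genotypes, 0 of the members in the fit passed an adjusted p under 0.05 in limma, a linear model fitted across all genes on log2(TPM + 1). For Notch1+/- against WT, 6 members, Cdc37 included, were in the fit, 0% of the 3178 genes tested passed the adjusted threshold, and 5.35% had an unadjusted p under 0.05. The member below that unadjusted level was Cdc37, which was selected on this contrast, so nothing is read from its count. For Notch1+/ΔTAD against WT, 6 members were in the fit, and 0% of 4737 genes passed the adjusted threshold. An unadjusted p under 0.05 was found for 5.00% of these genes, again with Cdc37 as the 1 such member. This contrast shares its WT libraries with the one that chose Cdc37, so nothing is read from that count either. For Notch1+/ΔTAD against Notch1+/-, 7 members, Cdc37 included, were in the fit, 0% of 6281 genes passed the adjusted threshold, 5.33% had an unadjusted p under 0.05, and 0 members did.

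No member separated 2 genotypes completely. Groups without overlap were found for 0 members and for 0.787% of genes in Notch1+/- against WT, for 0 members and 3.12% of genes in Notch1+/ΔTAD against WT, and for 0 members and 3.06% of genes in Notch1+/ΔTAD against Notch1+/-. The median log2 fold change of the 7 members, tested or not, was 0.16, 0.61, and 0.25 in these comparisons. That of the 6 members tested against WT, Cdc37 included, was 0.11 in Notch1+/- and 0.51 in Notch1+/ΔTAD. That of all genes tested was 0.06, 0.47, and 0.35. After quantile normalization the last 2 medians of all genes were -0.02 and 0.01. Values near 0 are largely built into that method, which gives every library the same distribution. After median-ratio scaling they were 0.42 and 0.28. Members' changes in the comparisons with Notch1+/ΔTAD are therefore given beside the medians of all genes. In bulk RNA, fewer cells of a type and less RNA per cell cannot be told apart.

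**Figure D1:**
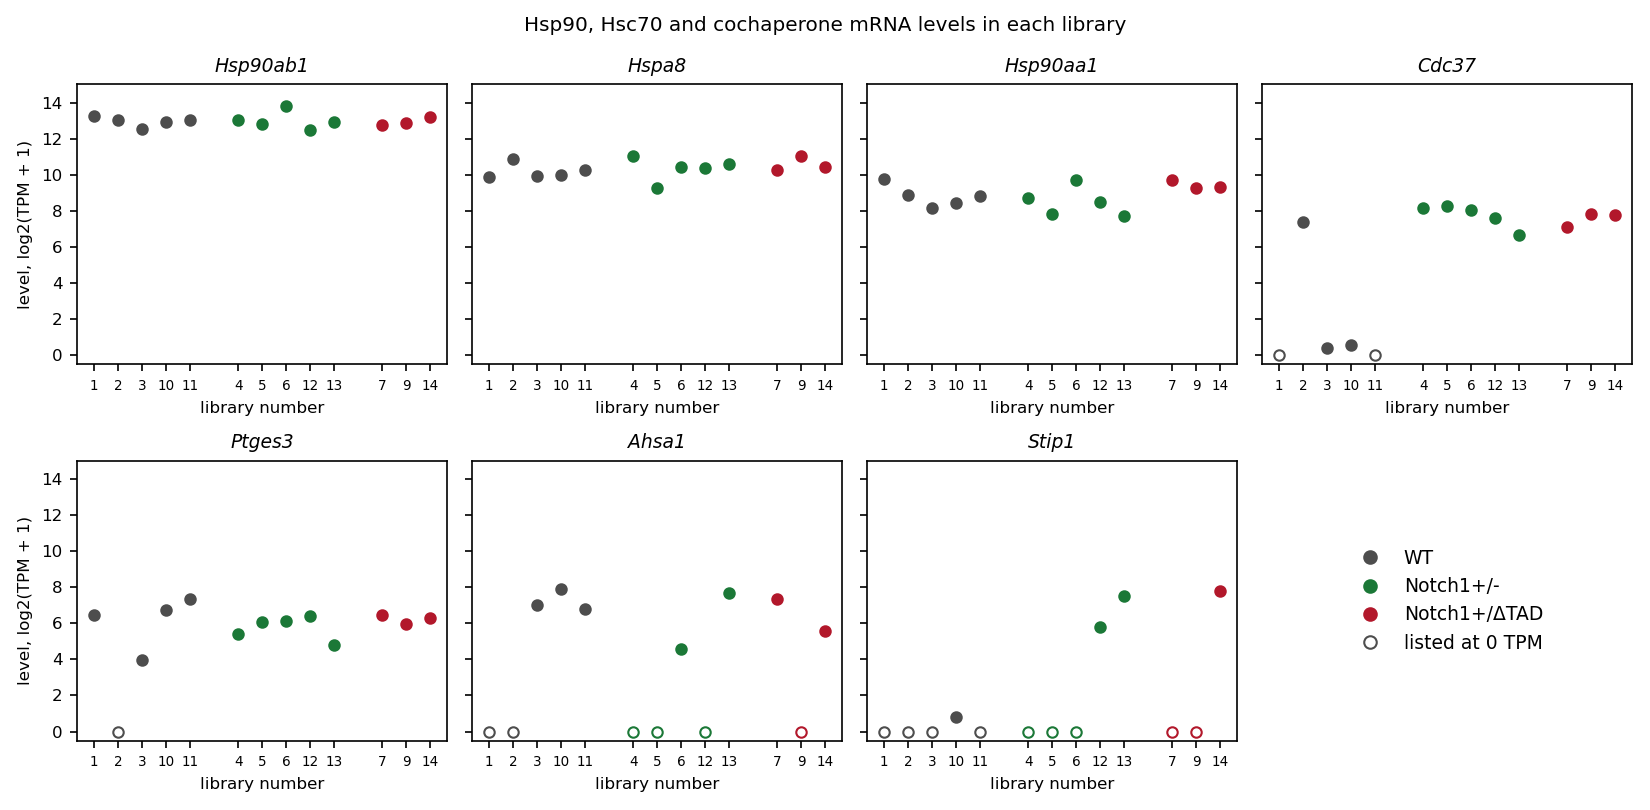
Level of each gene as log2(TPM + 1) on the vertical axis in each of the 13 libraries, named by library number and coloured by genotype, with open circles for values listed at 0. Hsp90ab1, Hspa8, and Hsp90aa1 were far above 0 in all 13 libraries, while Cdc37 was under 1 TPM in 4 of 5 WT libraries and Stip1 was at 1 TPM or more in 3 libraries.

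Hsp90ab1 (chromosome 17, positions 45567775 to 45573271, minus strand of GRCm38, 11 exons) was by far the highest member. Its level was 9586, 8355, 6016, 7843, and 8409 TPM in the WT libraries numbered 1, 2, 3, 10, and 11. It was 8430, 7280, 14350, 5690, and 7796 TPM in Notch1+/- libraries 4, 5, 6, 12, and 13, and 6945, 7554, and 9555 TPM in the Notch1+/ΔTAD libraries 7, 9, and 14. The genotypes overlapped, and Notch1+/- library 6 stood above the rest. Hsp90ab1 held a place between 6 and 31 among all genes of a library. The means were 8042 ± 1300 TPM in WT (SD, n = 5), 8709 ± 3312 TPM in Notch1+/- (SD, n = 5), and 8018 ± 1366 TPM in Notch1+/ΔTAD libraries (SD, n = 3). The log2 fold change was 0.06 in Notch1+/- against WT (SE 0.24, limma adjusted p = 0.993) and -0.0013 in Notch1+/ΔTAD against WT (SE 0.20, limma adjusted p = 1.00). Differences this small lay within the spread between mice, and 97.7% of the 75-base windows in the last 500 bases of the transcript occurred in no other GENCODE gene.

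Hsp90aa1, on chromosome 12 from 110690605 to 110702728 on the minus strand, also had 11 exons in its principal transcript. Its level was 870, 460, 283, 343, and 454 TPM in WT libraries 1, 2, 3, 10, and 11. It was 421, 229, 822, 355, and 205 TPM in Notch1+/- libraries 4, 5, 6, 12, and 13, and 823, 608, and 630 TPM in the Notch1+/ΔTAD libraries 7, 9, and 14. The 3 Notch1+/ΔTAD libraries were above all WT libraries except library 1 and above all Notch1+/- libraries except library 6. The means were 482 ± 230 TPM in WT (SD, n = 5), 406 ± 249 TPM in Notch1+/- (SD, n = 5), and 687 ± 118 TPM in Notch1+/ΔTAD libraries (SD, n = 3). The log2 fold change was -0.32 in Notch1+/- against WT (SE 0.61, limma adjusted p = 0.993), 0.61 in Notch1+/ΔTAD against WT (SE 0.59, limma adjusted p = 0.984), and 0.93 in Notch1+/ΔTAD against Notch1+/- (SE 0.72, limma adjusted p = 0.997). None of these passed the test.

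The balance between both cytosolic Hsp90 genes was then compared within libraries, which cancels any scaling that acts on the whole library. Hsp90aa1 made up 4.20% to 8.32% of the summed TPM of both genes in WT libraries, 2.56% to 5.87% in Notch1+/- libraries, and 6.19% to 10.6% in Notch1+/ΔTAD libraries. The highest share was in Notch1+/ΔTAD library 7 and the lowest in Notch1+/- library 13, and the shares of Notch1+/ΔTAD and Notch1+/- libraries did not overlap. On the log2 scale, the ratio of Hsp90aa1 to Hsp90ab1 was -4.15 ± 0.41 in WT (SD, n = 5), -4.53 ± 0.55 in Notch1+/- (SD, n = 5), and -3.54 ± 0.43 in Notch1+/ΔTAD libraries (SD, n = 3). The difference of Notch1+/ΔTAD from Notch1+/- was 0.99 (2-sided exact permutation test, p = 0.0536, and 0.134 after Benjamini-Hochberg adjustment over 3 comparisons). That of Notch1+/ΔTAD from WT was 0.61 (2-sided exact permutation test, p = 0.0893, adjusted p = 0.134), and that of Notch1+/- from WT was -0.38 (2-sided exact permutation test, p = 0.262, adjusted p = 0.262). The smallest p that 3 libraries against 5 allow is 0.0179. Without WT library 1, the difference of Notch1+/ΔTAD from WT was 0.78 (same exact permutation test, unadjusted p = 0.0286). That is the smallest p that this smaller design allows. Without Notch1+/ΔTAD library 7, the difference was 0.38 (same exact permutation test, unadjusted p = 0.286). With each library left out in turn, the unadjusted p of that test ran from 0.0286 to 0.286. No difference passed after adjustment.

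**Figure D2:**
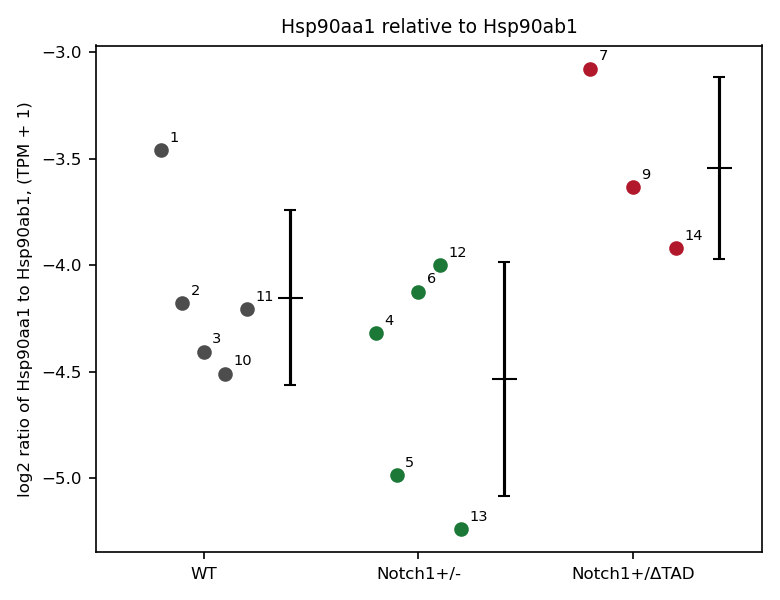
Log2 ratio of Hsp90aa1 to Hsp90ab1, each as TPM + 1, in every library on the vertical axis, by genotype on the horizontal axis, with library numbers beside the points and mean ± SD as bars. The 3 Notch1+/ΔTAD libraries lay above all 5 Notch1+/- libraries, and WT library 1 lay among them.

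Hspa8, which encodes Hsc70, lies on chromosome 9 from 40800984 to 40810087 on the plus strand. Its level was 942, 1839, 991, 1010, and 1209 TPM in WT libraries 1, 2, 3, 10, and 11. It was 2086, 614, 1374, 1345, and 1518 TPM in Notch1+/- libraries 4, 5, 6, 12, and 13, and 1224, 2130, and 1384 TPM in the Notch1+/ΔTAD libraries 7, 9, and 14. The genotypes overlapped over most of their range. The means were 1198 ± 372 TPM in WT (SD, n = 5), 1387 ± 525 TPM in Notch1+/- (SD, n = 5), and 1579 ± 484 TPM in Notch1+/ΔTAD libraries (SD, n = 3). The log2 fold change was 0.16 in Notch1+/- against WT (SE 0.42, limma adjusted p = 0.993) and 0.40 in Notch1+/ΔTAD against WT (SE 0.41, limma adjusted p = 0.987). Of the 75-base windows in the last 500 bases of Hspa8, 19.2% occurred in no other GENCODE gene, and 8 processed pseudogenes shared the others. How reads matching several places were assigned is not given in the sources used here, so the level of Hspa8 is uncertain. It also hosts small nucleolar RNAs of the same strand, of which Snord14c and Snord14d were listed at 0 in every library.

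Cdc37, the kinase adaptor of Hsp90, was near 0 in most WT libraries and well above 0 in every mutant library. It was listed at 0, 162, 0.297, 0.455, and 0 TPM in WT libraries 1, 2, 3, 10, and 11. It was at 283, 309, 266, 192, and 98.2 TPM in Notch1+/- libraries 4, 5, 6, 12, and 13, and at 138, 223, and 218 TPM in the Notch1+/ΔTAD libraries 7, 9, and 14. All 8 mutant libraries were above 4 of the WT libraries. WT library 2 lay above Notch1+/- library 13 and Notch1+/ΔTAD library 7, so the genotypes overlapped. The values of Notch1+/- libraries chose the gene, and the log2 difference of 6.09 between Notch1+/- and WT is therefore a description. The difference between Notch1+/ΔTAD and WT was 5.91 on the log2 scale (SE 2.02), and nothing is read from its test. It shares the WT libraries with the contrast that chose the gene, so it is given as a description too. Without WT library 2 it was 7.34. Between both mutants the log2 difference was -0.18.

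The position of Cdc37 differs between annotations at its 3′ end. GENCODE M21 places the gene on chromosome 9 from 21133222 to 21149982 on the minus strand, with 8 exons, and RefSeq ends it at 21139431. The principal transcript is 7851 bases in the first and 1642 bases when cut at the RefSeq end. A TPM is divided by transcript length, and which annotation gave the TPM is not given in the sources used here, so the level of Cdc37 relative to the other genes is uncertain. No other gene overlaps Cdc37, and all 75-base windows at either 3′ end were unique to it.

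The promoter of Cdc37 is shown because Cdc37 is the member whose values differed most between genotypes. These are the 250 bases before its RefSeq start, minus strand, chr9:21149935-21150184 of GRCm38.p6, with a heat shock element in capitals.
Cdc37: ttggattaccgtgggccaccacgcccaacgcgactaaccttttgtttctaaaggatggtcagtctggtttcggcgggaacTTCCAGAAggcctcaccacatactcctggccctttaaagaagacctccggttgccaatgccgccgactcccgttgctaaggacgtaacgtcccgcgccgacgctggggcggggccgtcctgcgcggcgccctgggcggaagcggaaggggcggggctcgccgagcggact
The search looked for GAANNTTC or TTCNNGAA, the paired units read by heat shock factors, which read alike on both strands, and for TGGGAA or TTCCCA, the RBPJ core on either strand, which can share letters with a heat shock element. The match in Cdc37 lay 170 to 163 bases before the start. Promoters of 4 of the 7 members were in the RefSeq table, and the stretches given for Ptges3, Stip1, and Ahsa1 held neither motif. That of Ahsa1, from 87266478 to 87266727 on the plus strand, began after the RefSeq start of the gene at 87266415. The bases before that start of Ahsa1 were not searched. The Cdc37 promoter held no RBPJ core. Among 32851 promoters of the same length, 12.8% held the heat shock motif and 21.6% the RBPJ core. A match is a description of letters and not a binding site.

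Ptges3 encodes p23, which stabilizes closed Hsp90, and lies on chromosome 10 from 128058954 to 128077272 on the plus strand. It was listed at 85.6, 0, 14.5, 107, and 161 TPM in WT libraries 1, 2, 3, 10, and 11. It was at 41.5, 65.3, 69.0, 85.1, and 27.0 TPM in Notch1+/- libraries 4, 5, 6, 12, and 13, and at 86.5, 60.2, and 77.9 TPM in the Notch1+/ΔTAD libraries 7, 9, and 14. The mutant libraries fell inside the WT range, and the 0 was in the WT library where Cdc37 was present. Ptges3 had a log2 fold change of 0.87 in Notch1+/- against WT (SE 1.45, limma adjusted p = 0.993) and 1.33 in Notch1+/ΔTAD against WT (SE 1.72, limma adjusted p = 0.996). Without WT library 2 the first of these was -0.36.

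Ahsa1 encodes Aha1, the activator of the Hsp90 ATPase, and lies on chromosome 12 from 87266479 to 87273998 on the plus strand. It was listed at 0, 0, 130, 239, and 109 TPM in WT libraries 1, 2, 3, 10, and 11. It was at 0, 0, 22.8, 0, and 206 TPM in Notch1+/- libraries 4, 5, 6, 12, and 13, and at 165, 0, and 46.2 TPM in the Notch1+/ΔTAD libraries 7, 9, and 14. Every genotype held libraries at 0 and libraries above 100 TPM. Ahsa1 had a log2 fold change of -1.89 in Notch1+/- against WT (SE 2.15, limma adjusted p = 0.993), -0.03 in Notch1+/ΔTAD against WT (SE 2.41, limma adjusted p = 0.999), and 1.86 in Notch1+/ΔTAD against Notch1+/- (SE 2.42, limma adjusted p = 0.997). Of the 75-base windows at the 3′ end of Ahsa1, 64.1% were unique to it and the noncoding gene Gm49207 shared the others, so reads could belong to either.

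Stip1 encodes Hop, the adaptor between Hsc70 and Hsp90, and lies on chromosome 19 from 7020702 to 7039967 on the minus strand. It was listed at 0, 0, 0, 0.771, and 0 TPM in WT libraries 1, 2, 3, 10, and 11. It was at 0, 0, 0, 55.5, and 184 TPM in Notch1+/- libraries 4, 5, 6, 12, and 13, and at 0, 0, and 217 TPM in the Notch1+/ΔTAD libraries 7, 9, and 14. Every value above 0 was in a library numbered 10 to 14, and all 8 libraries numbered 1 to 9 were at 0. The paper describes a common library protocol and names no rounds of preparation. Stip1 did not pass the filter of 1 TPM in enough libraries for the comparisons with WT. With all genes above 0 in the fit, a setting added after seeing the data, its log2 fold change was 2.50 in Notch1+/- against WT (SE 1.71, limma adjusted p = 0.709) and 2.42 in Notch1+/ΔTAD against WT (SE 1.75, limma adjusted p = 0.792). Between both mutants, the log2 fold change was -0.08 (SE 2.02, limma adjusted p = 1.00). Among libraries 10 to 14, the WT pair was under 1 TPM and the 3 mutant libraries were at 55.5 to 217 TPM, and this difference was not tested.

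**Figure D3:**
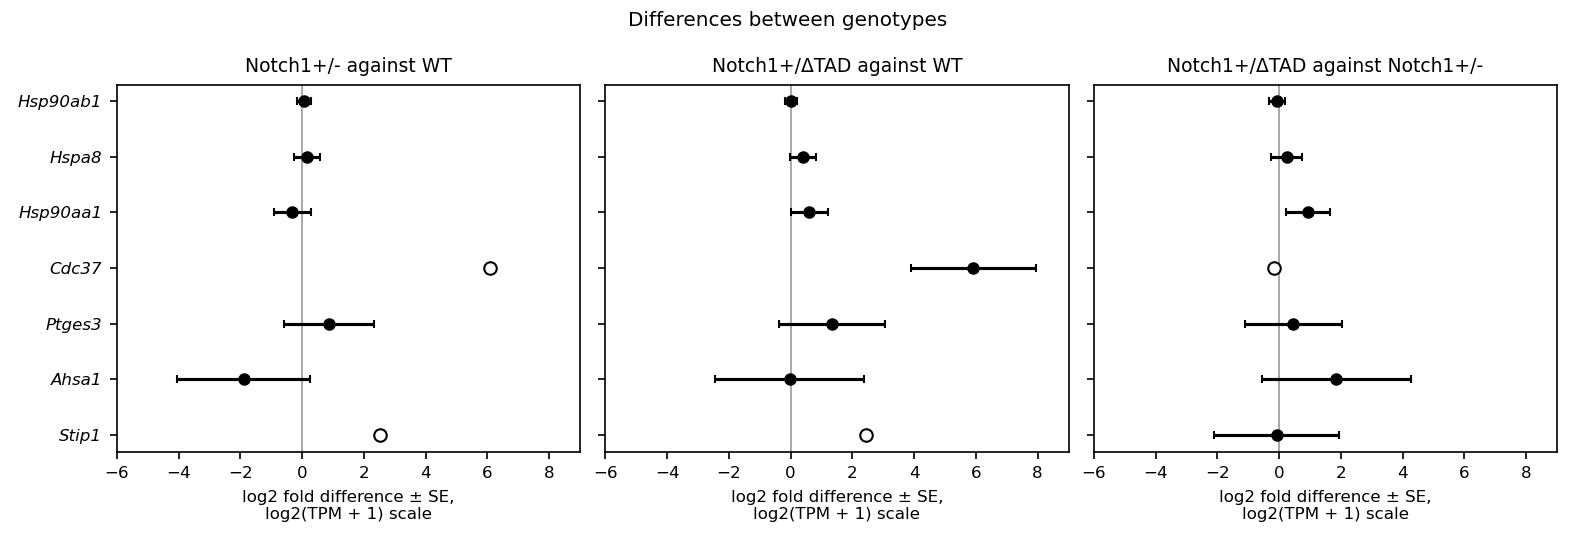
Log2 fold difference on the log2(TPM + 1) scale between pairs of genotypes on the horizontal axis, with SE from limma as bars, and genes on the vertical axis. Open circles mark differences given without a test, those of Cdc37 that involve Notch1+/- and those of Stip1 against WT, which did not pass the filter on low values. Cdc37 in Notch1+/ΔTAD against WT is drawn with its bar but is a description too, because it shares WT libraries with the contrast that chose the gene. Bars of Hsp90ab1 and Hspa8 were short, and those of Ahsa1, Ptges3, Stip1, and Cdc37 spanned several log2 units.

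The order of levels was stable at the top. On the per-length scale of TPM, Hsp90ab1 was above Hspa8 and Hspa8 above Hsp90aa1 in 13 of 13 libraries. Since 3′ reads do not grow with transcript length, dividing by length understates long genes. With TPM multiplied by transcript length to the RefSeq end, Hsp90ab1 was still above Hspa8 in 13 libraries and Hspa8 above Hsp90aa1 in 12. Below these, the order varied. Cdc37 was below Ptges3 in 4 of 5 WT libraries and above it in the other and in all 8 mutant libraries, an order set by the values that chose Cdc37. Ptges3 was above Ahsa1 in 8 libraries, below it in 4, and level at 0 in 1. Together the 7 members held 0.743% to 1.15% of the TPM in WT, 0.772% to 1.69% in Notch1+/-, and 0.938% to 1.21% in Notch1+/ΔTAD libraries.

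Detection set the members apart from each other. Hsp90ab1, Hspa8, and Hsp90aa1 were above 0 in all 13 libraries, as were 7.61% of the 10149 genes seen in any library. Of the 4 cochaperones, Ptges3 was above 0 in 12 libraries, Cdc37 in 11, Ahsa1 in 7, and Stip1 in 4. The SD of log2(TPM + 1) among WT libraries was 0.25 for Hsp90ab1, 0.40 for Hspa8, and 0.61 for Hsp90aa1. It was 3.19 for Cdc37, 3.03 for Ptges3, and 3.99 for Ahsa1. For Stip1, under 1 TPM in every WT library, it was 0.37. The median of 4307 genes was 2.62.

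The genes most like each member across libraries, by Pearson's r of log2(TPM + 1) over all 13 libraries and given as description, were not other members. Cdc37 was most like Afg3l1 (r = 0.94), Fxr1 (r = 0.88), and Twistnb (r = 0.88). Afg3l1 was listed at 0 in 4 of 5 WT libraries and at 75.7 TPM in the other, and it was above 1 TPM in every mutant library. Hsp90aa1 was most like Kif3b (r = 0.82), Ndufs1 (r = 0.82), and Ccnt2 (r = 0.81), and Hsp90ab1 was most like Mnd1 (r = 0.86), Rpl41 (r = 0.81), and Ap1ar (r = 0.76). Among the members, the pair most alike was Hsp90aa1 and Hsp90ab1 (r = 0.54), and Hsp90ab1 held place 121 of 4306 genes by likeness to Hsp90aa1. Ptges3 was most like Dync1i2, Atp5k, and Yipf3 (r = 0.88, 0.87, and 0.82), and Hspa8 was most like Arpc3, Ddx46, and Inpp5f (r = 0.80, 0.79, and 0.76). Stip1 was most like Nfyc, Stat5b, and Atp6v0c (r = 0.95, 0.93, and 0.92), and Ahsa1 was most like Ciapin1, Tmem234, and Scarb1 (r = 0.94, 0.92, and 0.83). These points share library composition, and shared zeros raise r for the sparse genes.

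Other Hsp90 cochaperones were examined as a list of 30 genes. Of these, 14 were tested in Notch1+/- against WT, 20 in Notch1+/ΔTAD against WT, and 25 between both mutants, and 0 passed the adjusted test in any comparison. The median log2 fold changes of those tested were 0.33, 1.33, and 0.39, beside 0.06, 0.47, and 0.35 for all genes tested. In comparisons with Notch1+/ΔTAD, its 3 libraries alone could bring a gene past the filter. The highest was Ppp5c, the phosphatase that acts on Hsp90 and its clients, at 200 to 434 TPM in WT, 422 to 891 TPM in Notch1+/-, and 253 to 637 TPM in Notch1+/ΔTAD libraries. Its log2 fold change in Notch1+/- against WT was 0.90 (SE 0.53, limma adjusted p = 0.969). Nudc, a cochaperone with a p23-like domain, ranged from 0 to 657 TPM, and Dnajc7, a protein that binds both Hsp70 and Hsp90, from 53.0 to 354 TPM.

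Cdc37l1, the paralog of Cdc37, was the 1 cochaperone of that list without overlap between genotypes, 1 of 20 tested in Notch1+/ΔTAD against WT and 1 of 25 between both mutants, beside 3.12% and 3.06% of all genes. It is named because its groups did not overlap. It was listed at 0, 3.02, 0, 0, and 53.0 TPM in WT, at 0.0478, 15.1, 11.0, 13.3, and 31.5 TPM in Notch1+/-, and at 136, 220, and 68.0 TPM in Notch1+/ΔTAD libraries, in the order of library number. All 3 Notch1+/ΔTAD libraries were above all others. Its log2 fold change against WT was 5.44 (SE 1.91, limma adjusted p = 0.791) and that against Notch1+/- was 3.69 (SE 1.84, limma adjusted p = 0.941). Neither passed. All Notch1+/ΔTAD libraries also had more genes above 0 than any WT library, and the part of this in the result was not tested.

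The Hsp70 side of the cycle was measured as 26 genes, and 0 of the 13, 14, and 17 tested in the 3 comparisons passed. The highest were Hspa5, the Hsp70 of the endoplasmic reticulum, at 194 to 1016 TPM, Dnajb6, a J-domain protein, at 32.4 to 844 TPM, and St13, the Hsc70-interacting protein, at 5.04 to 518 TPM. Hspbp1, a nucleotide exchange factor of Hsp70, was at 11.6, 42.8, 47.6, 55.2, and 0.565 TPM in WT and at 136, 156, and 226 TPM in Notch1+/ΔTAD libraries, without overlap, the 1 such gene of 14 tested beside 3.12% of all genes. Notch1+/- libraries held 137, 126, 18.2, 93.7, and 147 TPM and overlapped both. Between Notch1+/ΔTAD and WT, Hspbp1 differed by 3.17 on the log2 scale (SE 1.51, limma adjusted p = 0.952).

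The chaperonin and prefoldin genes, which fold actin, tubulin, and other cytosolic proteins apart from Hsp90, were 14, of which 11, 13, and 14 were tested and 0 passed. Groups did not overlap for 1 of 11 in Notch1+/- against WT, beside 0.787% of all genes, and for 2 of 13 in Notch1+/ΔTAD against WT, beside 3.12%. These genes, Cct2 and Cct3, are named for that. Cct2, a subunit of the chaperonin ring, was at 262, 330, 139, 130, and 282 TPM in WT, at 20.7, 57.5, 94.8, 9.50, and 1.01 TPM in Notch1+/-, and at 2.43, 108, and 88.8 TPM in Notch1+/ΔTAD libraries. Both mutants were below all WT libraries. Cct2 had a log2 fold change of -3.49 in Notch1+/- against WT (SE 1.18, limma adjusted p = 0.756) and -2.73 in Notch1+/ΔTAD against WT (SE 1.25, limma adjusted p = 0.952), and these comparisons share the WT libraries. Cct3, another subunit, was at 259, 303, 232, 640, and 552 TPM in WT and at 96.3, 19.6, and 76.8 TPM in Notch1+/ΔTAD libraries, without overlap (log2 fold change -2.76, SE 0.90, limma adjusted p = 0.680). In Notch1+/- libraries Cct3 was at 18.5, 0, 498, 174, and 485 TPM. Cct5 and Pfdn1 were the other highest genes of the list, and they differed by 1.17 and 1.48 on the log2 scale between Notch1+/- and WT (limma adjusted p = 0.978 and 0.993).

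**Figure D4:**
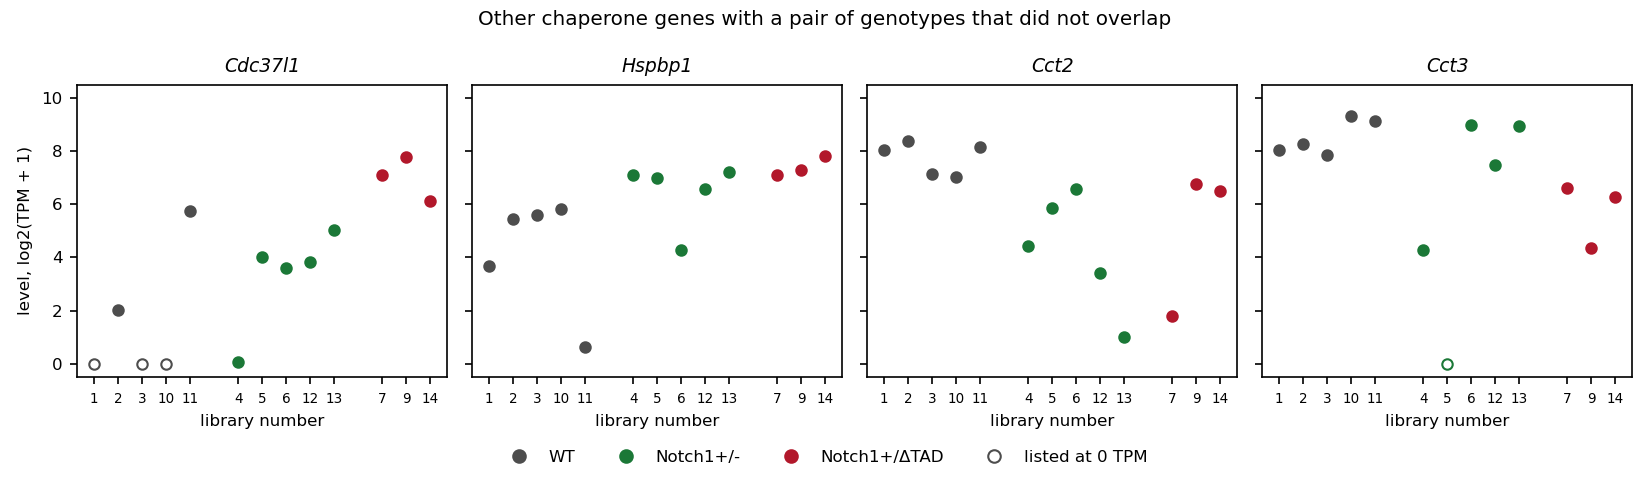
Level of Cdc37l1, Hspbp1, Cct2, and Cct3 as log2(TPM + 1) on the vertical axis in each of the 13 libraries, with open circles for values listed at 0. The genes are shown because their groups did not overlap, as for 3.12% of all genes in Notch1+/ΔTAD against WT. Notch1+/ΔTAD libraries lay above all WT libraries for Cdc37l1 and Hspbp1 and below them for Cct2 and Cct3, and none of these differences passed the adjusted test.

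Heat shock factors induce a set of chaperone genes when proteins unfold. A list of 15 genes held the factors Hsf1 and Hsf2, above 0 in 1 and 4 libraries, and heat-inducible genes. Of the list, Hspa1a, Hspa1b, Hspb1, and Serpinh1 were under 1 TPM in every library. Hspe1 and Hspd1, the mitochondrial chaperonin pair, ranged from 24.3 to 1195 TPM and from 111 to 615 TPM, and Dnaja1, the main J-domain partner of Hsc70, from 52.8 to 268 TPM. Of the 6, 7, and 8 genes tested in the 3 comparisons, 0 passed. The immediate early genes, which handling of fresh cells can induce, summed to 4.63 to 236 TPM over 10 genes in WT, 26.9 to 109 TPM in Notch1+/-, and 58.3 to 94.7 TPM in Notch1+/ΔTAD libraries.

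Hsp90 genes of other compartments and kinase clients did not pass either. Hsp90b1, the Hsp90 of the endoplasmic reticulum, ranged from 50.6 to 713 TPM and differed by 0.31 on the log2 scale in Notch1+/- against WT (SE 0.84, limma adjusted p = 0.993) and by 0.13 in Notch1+/ΔTAD against WT (SE 0.99, limma adjusted p = 0.996). Trap1, its mitochondrial relative, was listed at 0 in 6 libraries and reached 200 TPM. Of 25 kinase clients and kinases that act on the cycle, 11, 17, and 21 were tested and 0 passed. Akt1, Flt3, and Csnk2b, the highest of them, overlapped in every comparison, with Csnk2b, a subunit of the kinase that activates Cdc37, between 0 and 767 TPM. Of 13 chaperones and stress genes of the endoplasmic reticulum, 8, 10, and 12 were tested and 0 passed, with Calr and Atf4 the highest besides Hspa5.

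Markers of other cells were checked across the same libraries. Of 8 erythroid markers, 7 were under 1 TPM in every library, and of 9 measured T and NK markers, Cd3e, Cd3d, Cd3g, Cd8a, Klrb1c, Ncr1, and Gzma were too. The T and NK markers summed to 0 to 1309 TPM in WT, mostly Nkg7 in library 10, to 0 to 36.7 TPM in Notch1+/-, and to 0 to 262 TPM in Notch1+/ΔTAD libraries, and the erythroid markers to at most 17.6 TPM. The summed level of 8 B lineage markers was 2.08 to 1075 TPM in WT, 14.4 to 1834 TPM in Notch1+/-, and 65.8 to 1670 TPM in Notch1+/ΔTAD libraries. That of 9 myeloid markers was 436 to 2067 TPM, 212 to 1257 TPM, and 272 to 1773 TPM. These ranges overlapped, but single markers leaned one way. Between Notch1+/ΔTAD and Notch1+/-, 6 of 7 tested myeloid markers had higher means in Notch1+/ΔTAD, with a median log2 fold change of 2.35 beside 0.35 over all genes. S100a9 (6.06) and Lyz2 (3.48) had an unadjusted p under 0.05, and 0 passed the adjusted limma test. Between Notch1+/ΔTAD and WT, 5 of 5 tested B lineage markers had higher means in Notch1+/ΔTAD, with a median of 2.56 beside 0.47, and 0 passed. The part of these cells in the members' values was not tested. Ly6d, a marker of B-biased CLPs, was at 1801 to 2302 TPM in Notch1+/ΔTAD and at 194 to 1538 TPM in Notch1+/- libraries (log2 fold change 1.62, SE 0.74, limma adjusted p = 0.932). WT libraries, at 271 to 2559 TPM, overlapped both, with a log2 fold change of 1.12 for Notch1+/ΔTAD over WT (SE 0.60, limma adjusted p = 0.952).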

How the data were processed

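CLPs of each genotype were profiled by strand-specific 3′ RNA-Seq, 1 library per mouse. The authors trimmed the reads and aligned them with STAR to mm10, the build also named in the submitters' processing notes, and deposited TPM per gene in 2 tables. Each table holds a mutant genotype together with WT, and WT values were identical in both. The tool, annotation, and handling of shared reads behind the TPM are not given in the sources used here. A deposited TPM is relative to 1000000 per library, and 0 columns were left unmatched to a sample. No read counts were used, so a TPM of 0 has no stated limit and precision rests on the spread between mice.

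limma 3.58.1 in R 4.3.3 was fitted to log2(TPM + 1) with a mean-variance trend, 2-sided, with Benjamini-Hochberg adjustment. Genes needed 1 TPM in at least 5 libraries for Notch1+/- against WT and in at least 3 for comparisons with Notch1+/ΔTAD. Both mutants were compared with each other in a model of all 13 libraries. Fold changes on this scale understate the change of low genes. The ratio of Hsp90aa1 to Hsp90ab1 was compared by exact permutation tests in Python 3.11.15 with scipy 1.17.1. The fit was tested on simulated data first. Of genes changed by 3 log2 units there, it recovered 3% to 4.5% over the 3 comparisons. Of genes changed by 6 log2 units, it recovered 31% to 51%. A gene that did not pass can therefore still differ between genotypes.

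The members, gene lists, and tests were chosen with earlier results of these data known. Named genes are the members, the 3 genes with the highest mean TPM in each list, chaperone and client genes whose groups did not overlap, and the 3 genes most like each member among those at 1 TPM or more in at least 5 libraries. Other marker genes and Notch1 were named after their values were seen. Lists of Hsp90 paralogs, other cochaperones, the Hsp70 cycle, the heat shock response, chaperonin and prefoldin, the endoplasmic reticulum, kinase clients, immediate early genes, and CLP, B, myeloid, erythroid, and T and NK markers were described by counts and levels. Positions come from GENCODE M21 (GRCm38) and RefSeq (GRCm38.p6). The alternatives tried were other pseudocounts (0.1 or 10), a filter at mean TPM 10 or none beyond being above 0, 2 rescalings (quantile and median-ratio), eBayes untrended or robust, library number range (1 to 9, 10 to 14) as a covariate, a joint model of 13 libraries, omission of each library, and TPM multiplied by transcript length, the last chosen after seeing the data.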

Additional observations from a re-analysis of the deposited data

Results flagged for a closer look

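In groups of 5 libraries, the gap between the highest or lowest library and its nearest neighbour was set against the range of the group for the members' TPM, the Hsp90aa1 to Hsp90ab1 ratio, the number of genes above 0, and the share of TPM in the members. Of 20 such groups, 3 held a library past Dixon's critical value. Chance gives about 1 in 20 for normally distributed values, which these with many zeros are not, and the groups include Cdc37, which was selected on its values. Cdc37 was at 162 TPM in WT library 2, with every other WT library under 1 TPM. Stip1 was at 0.771 TPM in WT library 10, with every other WT library listed at 0, and with 4 zeros any value above 0 is past the critical value. Ahsa1 was at 206 TPM in Notch1+/- library 13, with the others at 0 to 22.8 TPM.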

How the results depend on the processing

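No paired analysis was possible because no library number occurs in more than 1 genotype. The count of genes past the adjusted threshold was 0 in all 3 comparisons and in 57 of 60 alternatives. It became 2 (Notch1+/- against WT), 15 (Notch1+/ΔTAD against WT), and 3 (between both mutants) by eBayes without trend, and no member was among them. The difference in the log2 ratio of Hsp90aa1 to Hsp90ab1 kept its direction throughout and its side of the threshold in 31 of 32 alternatives. With each library left out in turn it ranged from -0.52 to -0.20 in Notch1+/- against WT, from 0.38 to 0.80 in Notch1+/ΔTAD against WT, and from 0.76 to 1.18 between both mutants. The descriptive log2 difference of Cdc37 in Notch1+/- against WT was 3.64 with a pseudocount of 10 and 8.03 with 0.1. Among the alternatives for the members, none that was tested passed, and 24 tested values changed sign. At the filter used, where it was not tested, Stip1 in Notch1+/ΔTAD against WT was at -0.16 without Notch1+/ΔTAD library 14. Hsp90ab1 was at -0.011 by quantile normalization in Notch1+/- against WT and at 0.010 with the term for library numbers in Notch1+/ΔTAD against WT. With that term, Ahsa1 was at 0.23 in Notch1+/ΔTAD against WT and Stip1 at 0.22 between both mutants. Ahsa1 was at 0.18 with a pseudocount of 0.1 and Stip1 at 0.10 with 10 in the same comparisons. With each library left out, Notch1+/- against WT ranged from -0.14 to 0.20 for Hsp90ab1, from -0.36 to 1.48 for Ptges3, and from -0.018 to 0.42 for Hspa8. Notch1+/ΔTAD against WT ranged from -0.13 to 0.10 for Hsp90ab1 and from -1.56 to 2.12 for Ahsa1. Between both mutants the range was -0.20 to 0.14 for Hsp90ab1, -2.67 to 1.21 for Stip1, and -0.020 to 0.42 for Hspa8. The cause of these changes was not tested.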
